A study of Arabidopsis thaliana with 6 samples.

Results

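The transcripts described here encode 10 enzymes of the ascorbate-glutathione cycle and of glutathione synthesis in Arabidopsis thaliana, found by their gene identifiers. They are 10 of the 32678 genes in the deposited table of read counts, and 9 of them passed the filter on low counts. The set was chosen with earlier results of these data known, so its shares of changed transcripts do not come from a blind choice. RNA was sequenced from wild-type plants, 7 days old, treated for 12 h with melatonin, a tryptophan-derived indoleamine, at 0, 100 or 1000 µM. The labels name rosette leaf as the tissue, and each of the 3 groups had 2 libraries; the genotype and the medium were the same in all of them. Whether the 2 libraries of a dose come from different plants is not stated in the labels, so every p-value reflects the spread between libraries, and that spread may be technical.

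The cycle removes hydrogen peroxide at the expense of NADPH. Ascorbate peroxidases (APX) reduce the peroxide with ascorbate and leave monodehydroascorbate, which monodehydroascorbate reductases (MDAR) turn back into ascorbate, while dehydroascorbate reductases (DHAR) recover the fully oxidised form with glutathione. Glutathione reductases (GR) then restore glutathione with NADPH, and glutamate-cysteine ligase (GSH1) catalyses the first committed step of glutathione synthesis. Leaves hold parallel sets of these enzymes in the cytosol, the chloroplast, mitochondria and peroxisomes, and the chloroplast set serves the peroxide formed at the photosynthetic electron chain.

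Library totals ran from 6410046 to 7723602 counts. Within-group differences were widest at 1000 µM, with a chi-square per degree of freedom of 5.69, against 1.95 for the control pair and 1.86 for the 100 µM pair. All 10 leaf markers had more than 3 counts in each library, as did 13 of 15 root markers, among them PYK10, and 4 of 5 guard cell markers, so the libraries were not free of transcripts typical of roots. The summed level of the leaf markers was 27570 and 29540 CPM (read counts scaled to a common library size) in the controls, 26550 and 26210 CPM with 100 µM, and 18970 and 16990 CPM with 1000 µM. The root markers summed to 3567 and 3728 CPM, 3425 and 3477 CPM, and 2420 and 2408 CPM in the same order. Most of that sum was PYK10, and without it they summed to 390 and 413 CPM, 365 and 360 CPM, and 414 and 357 CPM. The largest parts of the leaf sum were RBCS1A and RCA. Their means were 11160 and 7896 CPM in the controls and 7948 and 3697 CPM at 1000 µM. At 1000 µM 6 of 10 leaf markers fell and 0 rose, where 14.5% of all tested genes fell and 15.2% rose. The 4 leaf markers not called were LHCB1.1, LHCB2.1, LHCB4.1 and GLK1 (log2 changes -0.48, -0.06, -0.17 and 0.17). Of 15 root markers 8 fell and 1, ABCB4, rose (log2 change 0.60 ± 0.10). ABCB4 makes up a large part of the sum without PYK10, with means of 100.9 CPM in the controls and 153.3 CPM at 1000 µM. That sum therefore does not show the falls of the other root markers. In such bulk RNA, fewer cells of a type and less RNA per cell cannot be told apart, and the part of these markers in the changes given below was not tested.

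The cytosolic peroxidase pair, APX1 and APX2, lay at opposite ends of the levels measured here, and the 300 bases before the annotated start of each gene are shown for that reason. Both were taken from RefSeq's assembly TAIR10.1 by its own annotation, and both windows hold no other annotated gene. Capitals mark the motifs searched on both strands: TGACG, the core of the as-1 element bound by TGA factors, GAANNTTC, a core of heat shock elements, and CACGTG, the G-box. No motif overlapped another in these windows.

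APX1 promoter, chr1:2436981-2437280, plus strand: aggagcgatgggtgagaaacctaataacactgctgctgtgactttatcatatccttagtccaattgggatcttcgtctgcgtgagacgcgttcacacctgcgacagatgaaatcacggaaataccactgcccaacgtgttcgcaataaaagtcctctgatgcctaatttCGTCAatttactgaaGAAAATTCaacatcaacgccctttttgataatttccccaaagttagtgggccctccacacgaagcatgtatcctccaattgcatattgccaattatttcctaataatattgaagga

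APX2 promoter, chr3:2955856-2956155, plus strand: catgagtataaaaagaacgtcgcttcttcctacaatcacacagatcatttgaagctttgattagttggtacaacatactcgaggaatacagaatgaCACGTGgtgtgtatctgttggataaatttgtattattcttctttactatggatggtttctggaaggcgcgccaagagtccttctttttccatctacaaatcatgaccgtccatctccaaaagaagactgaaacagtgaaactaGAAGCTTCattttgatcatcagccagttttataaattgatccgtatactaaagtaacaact

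The APX1 window held TGACG (as its reverse complement, 131 to 127 bases before the start) and GAANNTTC (116 to 109 bases before it). The APX2 window held CACGTG (204 to 199 bases before the start) and GAANNTTC (61 to 54 bases before it). Among 17996 promoters of tested protein-coding genes, windows of 300 bases held TGACG in 22.1%, GAANNTTC in 11.2% and CACGTG in 7.87%. Over the 10 genes, TGACG was found in 2 windows, GAANNTTC in 3 and CACGTG in 2, all of them upstream of APX1, APX2 or DHAR1. The other 7 windows held none of these letters, which says nothing about which factors bind there. The windows of tAPX, GR1, DHAR1 and DHAR2 also held part of another annotated gene, AT1G19580 in the case of DHAR1.

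Per kilobase of exon, the scale on which levels of different genes can be compared, APX1 led the 9 measurable transcripts at 316 CPM per kb in both controls. MDAR1 followed at 141 and 154, GSH1 at 132 and 129, and DHAR1 at 118 and 131 CPM per kb, and the ranges of GSH1 and DHAR1 overlapped. GR2, the plastid and mitochondrial glutathione reductase, stood at 78.3 and 82.8 CPM per kb. Below it came tAPX of the thylakoid (37.9 and 37.3), GR1 of the cytosol and peroxisome (32.1 and 33.4), DHAR2 (23.9 and 21.0) and sAPX of the stroma (19.3 and 18.9). At 1000 µM GR1 reached 69.7 and 64.4 CPM per kb and DHAR2 98.8 and 69.3, so that the DHAR2 libraries lay on either side of those of GR2 (78.9 and 73.7). In the same libraries sAPX (25.9 and 24.3) lay slightly above tAPX (23.5 and 23.7), the reverse of their order in the controls. This reversal depends on the combined exon lengths used, 1980 bases for sAPX and 2516 for tAPX. Read counts of sAPX stayed below those of tAPX (370 and 380 against 427 and 472 at 1000 µM).

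**Figure D1:**
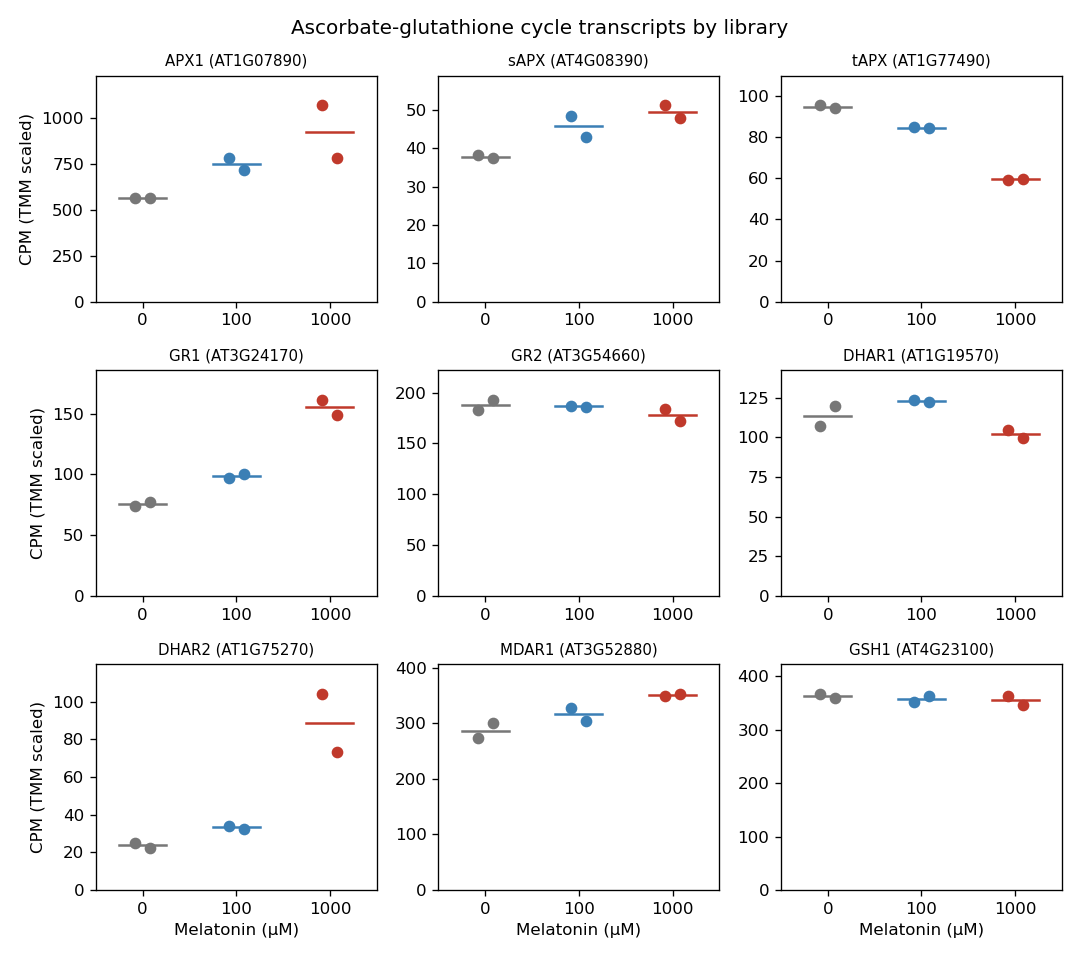
Level of each of the 9 tested transcripts (vertical axis, CPM with TMM scaling, from 0) at 0, 100 and 1000 µM melatonin (horizontal axis). Points are single libraries and lines are group means. DHAR2, GR1 and MDAR1 stand highest in both 1000 µM libraries. tAPX and DHAR1 stand lowest there, DHAR1 by a margin that did not pass. GSH1 spans 345.6 to 366.9 CPM over all 6 libraries.

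At 1000 µM melatonin against the control, 6 of the 9 tested transcripts changed, 5 rising (DHAR2, GR1, APX1, sAPX and MDAR1) and 1 falling (tAPX). Across all 18380 tested genes 29.6% changed, 15.2% rising and 14.5% falling. The median log2 change was 0.29 for the 9 transcripts and -0.01 for all tested genes. At 100 µM, GR1 was the 1 transcript of the 9 that changed, where 3.32% of all genes did (1.79% rising, 1.53% falling), and the medians were 0.14 and -0.01. Between 1000 and 100 µM, DHAR2 and GR1 were higher and tAPX lower at the higher dose, 3 of 9 where 16.0% of all genes changed (8.65% higher, 7.30% lower), with medians of 0.12 and 0.00. The test was edgeR's two-sided quasi-likelihood test, with Benjamini-Hochberg adjustment over the 18380 genes and a call at an adjusted p under 0.05. It takes the spread from all 3 groups and from other genes, so the wider 1000 µM pair also enters the test at 100 µM.

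**Figure D2:**
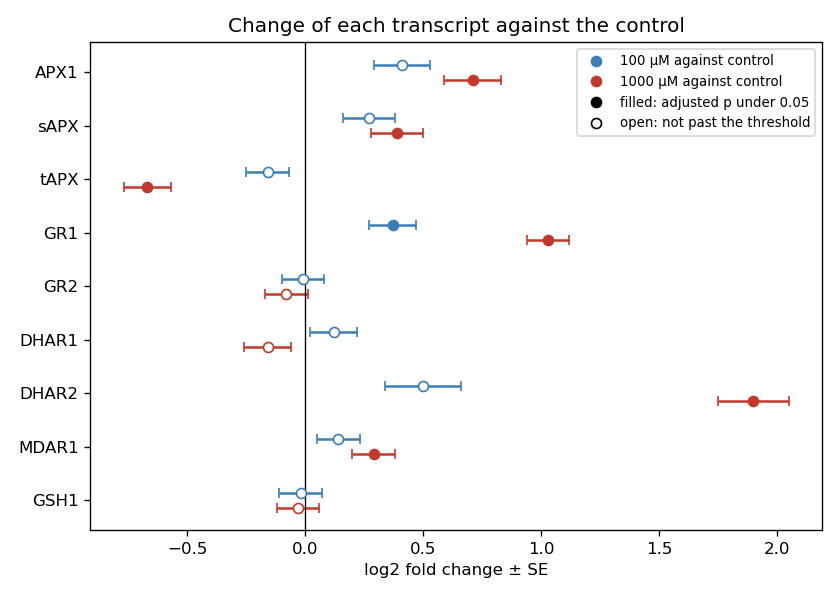
Log2 fold change of each transcript against the control (horizontal axis) at 100 µM and 1000 µM, with bars of 1 standard error. Filled points passed an adjusted p of 0.05: at 1000 µM these were 5 rises, up to 1.90 for DHAR2, and the fall of tAPX by 0.67, while at 100 µM GR1 alone passed. Both sets of changes share the 2 control libraries.

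APX1 (AT1G07890), the main peroxidase of the cytosol, had 564.9 and 565.3 CPM in the controls, 782 and 718 CPM at 100 µM and 1068 and 780 CPM at 1000 µM. Both melatonin groups lay above both controls, but the 1000 µM libraries differed widely and 1 of them fell within the range of the 100 µM pair. The log2 change at 1000 µM was 0.71 ± 0.12 (SE; adjusted p = 0.000253), a 1.63-fold rise, and it was 0.47 without 1000 µM replicate 1 and 0.93 without 1000 µM replicate 2. At 100 µM the log2 change of 0.41 ± 0.12 did not pass (adjusted p = 0.0806). It passed without a filter on low counts (0.0011), with only the 2 groups fitted (1.37e-05) and without either 1000 µM library (3.98e-06 and 4.95e-06). The difference between the doses, 0.30 ± 0.12, did not pass either (adjusted p = 0.106), but did without a filter (0.0143) and without 1000 µM replicate 2 (log2 change 0.52, adjusted p = 3.88e-07).

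APX2 (AT3G09640), a second cytosolic peroxidase that in Arabidopsis leaves is known as a marker of high light and heat stress, was at or near 0 throughout. Over the 6 libraries it had 1 count in control replicate 2, 1 count in 1000 µM replicate 1 and 0 counts in each of the other 4, and it was not tested. Counts of 3, the upper limit that a count of 0 allows, correspond to 0.379 to 0.466 CPM in these libraries, so a difference between the groups below that was not detectable at this depth. HSFA2 (AT2G26150), a heat stress factor known to activate APX2, had 9.46 and 8.06 CPM in the controls, 2.68 and 2.02 CPM at 100 µM and 2.91 and 2.15 CPM at 1000 µM. It fell at both doses, with log2 changes of -1.88 ± 0.30 at 100 µM (adjusted p = 0.00159, and 0.076 without 100 µM replicate 2) and -1.79 ± 0.29 at 1000 µM (adjusted p = 0.00015), and the dose groups overlapped (log2 change between them 0.09 ± 0.37, adjusted p = 0.907).

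The 2 chloroplast peroxidases moved in opposite directions. tAPX (AT1G77490), which is anchored in the thylakoid membrane, stood at 95.3 and 93.9 CPM in the controls, 85.0 and 84.2 CPM at 100 µM and 59.1 and 59.7 CPM at 1000 µM. No groups overlapped, and within each group the libraries differed by less than 2 CPM. At 1000 µM it fell by 0.67 ± 0.10 on the log2 scale (0.628-fold, adjusted p = 4.16e-05) and lay 0.51 ± 0.10 below the 100 µM level (adjusted p = 0.00136), whereas the change of -0.16 ± 0.09 at 100 µM did not pass (adjusted p = 0.458). The summed leaf markers were also lower in the 1000 µM libraries, although 4 of the 10 leaf markers did not pass there, as given above.

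sAPX (AT4G08390), the soluble peroxidase of the stroma and mitochondria, had 38.3 and 37.4 CPM in the controls, 48.5 and 43.0 CPM at 100 µM and 51.2 and 48.0 CPM at 1000 µM. Both melatonin groups lay above the controls and overlapped each other. Its rise at 1000 µM was 0.39 ± 0.11 on the log2 scale (adjusted p = 0.0135), and this call ended without control replicate 1 or 2 (adjusted p = 0.0776 and 0.106) and with DESeq2 (0.078). The log2 change at 100 µM was 0.27 ± 0.11 (adjusted p = 0.247). Read counts of sAPX over tAPX within a library, which do not depend on how libraries are scaled, were 0.402 and 0.399 in the controls, then 0.570 and 0.511 with 100 µM, and 0.867 and 0.805 with 1000 µM. The ratio of APX1 to tAPX went in the same libraries from 5.93 and 6.02 over 9.20 and 8.53 to 18.1 and 13.1.

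**Figure D3:**
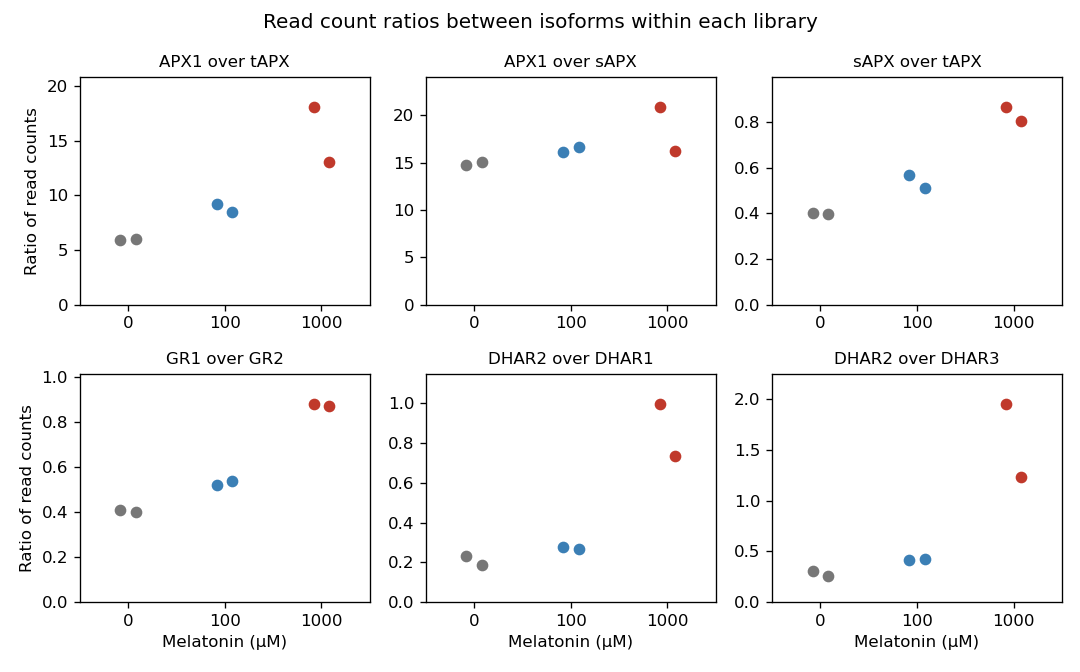
Ratio of read counts between isoform pairs within each library (vertical axes, from 0) at 0, 100 and 1000 µM melatonin (horizontal axis), 1 point per library. GR1 over GR2 lies at 0.407 and 0.401 in the controls and at 0.878 and 0.869 at 1000 µM. APX1 over sAPX spans 14.8 to 20.9, and of its 1000 µM libraries 1 lies within the 100 µM pair and 1 above it.

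Of the monodehydroascorbate reductases, MDAR1 (AT3G52880), a peroxisomal and cytosolic enzyme, had 274 and 300 CPM in the controls, 328 and 305 CPM at 100 µM and 349 and 353 CPM at 1000 µM. The groups did not overlap, but the steps between their means were of the same order as the gap between the 2 controls. At 1000 µM it rose by 0.29 ± 0.09 on the log2 scale (1.22-fold, adjusted p = 0.0232). This call ended without control replicate 1 (log2 change 0.23, adjusted p = 0.275), control replicate 2 (0.36 and 0.079) or either 100 µM library (0.0547 and 0.0576), and with only these 2 groups fitted (adjusted p = 0.0565). The log2 change of 0.14 ± 0.09 at 100 µM did not pass (adjusted p = 0.513).

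The dehydroascorbate reductases differed from each other. DHAR2 (AT1G75270), a cytosolic form, had 25.2 and 22.1 CPM in the controls, 34.2 and 32.5 CPM at 100 µM and 104 and 73.1 CPM at 1000 µM. Its groups were fully separate, and its 1000 µM libraries stood furthest apart. It rose by 1.90 ± 0.15 on the log2 scale at 1000 µM (3.74-fold, adjusted p = 3.92e-08), and this change was 1.63 to 2.15 when any 1 library was left out. It was also 1.41 ± 0.14 higher than at 100 µM (adjusted p = 2.6e-06). The change at 100 µM, 0.50 ± 0.16, did not pass (adjusted p = 0.126), although both libraries were above both controls. It passed without a filter on low counts (0.0117), with only the 2 groups fitted (0.00834) and without either 1000 µM library (0.005 and 0.00491).

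DHAR1 (AT1G19570), also counted among the cytosolic forms, had 107.5 and 119.8 CPM in the controls, 124 and 122 CPM at 100 µM and 104.5 and 99.4 CPM at 1000 µM. The 1000 µM libraries were the lowest, by a margin that did not pass against the control (log2 change -0.16 ± 0.10, adjusted p = 0.23). Against 100 µM the log2 change of -0.27 ± 0.10 had an adjusted p of 0.0619 and passed without 1000 µM replicate 1 (0.0171). In the annotation of TAIR10.1, 118 of 765 windows of 50 bases in its exons also occur in AT1G19540 or AT1G19550, so that reads from there may be lost or shared; AT1G19550 itself had 0 to 3 counts per library and AT1G19540 37 to 73. Exons of the other 9 genes held no window of 50 bases found elsewhere in the nuclear chromosomes. Counts of DHAR2 over DHAR1 were 0.234 and 0.185 in the controls and 0.996 and 0.735 at 1000 µM.

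GR1 (AT3G24170) rose at 1000 µM, and at 100 µM it passed by a narrow margin. It had 74.4 and 77.5 CPM in the controls, 96.9 and 100.0 CPM at 100 µM and 162 and 149 CPM at 1000 µM, with no overlap between any groups. The log2 change was 1.03 ± 0.09 at 1000 µM (2.05-fold, adjusted p = 2.42e-07), 0.66 ± 0.09 between the doses (adjusted p = 8.43e-05) and 0.37 ± 0.10 at 100 µM (1.30-fold, adjusted p = 0.0413). The call at 100 µM ended without any 1 of the 4 libraries compared (log2 changes 0.35 to 0.40, adjusted p = 0.25 to 0.396) and with DESeq2 (0.108). GR1 overlaps AT3G24160 on the other strand by 74 bases and AT3G24180 on its own strand by 14, and whether the counting used strand is not given, so its values are less certain. AT3G24160 had 1533 and 1536 counts in the controls and 1818 and 1682 at 1000 µM.

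GR2 (AT3G54660), listed as GR in RefSeq, had 183 and 193 CPM in the controls, 187 and 186 CPM at 100 µM and 184 and 172 CPM at 1000 µM. The groups overlapped with the controls, and the log2 changes were -0.01 ± 0.09 at 100 µM and -0.08 ± 0.09 at 1000 µM (adjusted p = 0.97 and 0.551). GSH1 (AT4G23100) had 367 and 359 CPM in the controls, 352 and 362 CPM at 100 µM and 364 and 346 CPM at 1000 µM. All its groups overlapped. The log2 change was -0.02 ± 0.09 at 100 µM (adjusted p = 0.938) and -0.03 ± 0.09 at 1000 µM (adjusted p = 0.809). With these standard errors, neither GR2 nor GSH1 is shown to be unchanged.

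DHAR2 had the smallest p of the 9 at 1000 µM, and the 5 transcripts whose log2 CPM followed it most closely over the 6 libraries were GB2 (AT4G35860; Pearson r = 0.9987), AT2G19540, AT4G24140, AT4G09830 and AT4G20830 (r = 0.9979). AT4G20830 had 152 and 149 CPM in the controls, 224 and 218 CPM at 100 µM and 934 and 584 CPM at 1000 µM. Among 11977 transcripts with a mean of at least 10 CPM, 899 had r above 0.95, so the likeness is shared widely: the 6 points are 3 doses of 2 libraries.

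The remaining enzymes of the cycle also gave rises and falls. Of 9 further peroxidases, MDARs and DHARs, 1 rose and 3 fell at 1000 µM (median log2 change -0.13). These were 11.1% and 33.3%, against 15.2% and 14.5% of all tested genes. MDAR2 (AT5G03630), a cytosolic reductase, rose from 169 and 182 CPM to 257 and 255 CPM at 100 µM and 585 and 479 CPM at 1000 µM. Its log2 change was 1.60 ± 0.10 at 1000 µM (adjusted p = 3.74e-09) and 0.54 ± 0.10 at 100 µM (adjusted p = 0.00734, lost without any 1 of the 4 libraries compared, at 0.071 to 0.168). DHAR3 (AT5G16710), the chloroplast form, fell from 82.5 and 85.0 CPM to 53.3 and 59.4 CPM at 1000 µM (log2 change -0.57 ± 0.10, adjusted p = 0.000394). APX4 (AT4G09010), a peroxidase-like protein of the thylakoid lumen, fell by 0.72 ± 0.13 (0.49 without 1000 µM replicate 1), and it overlaps GRF1 by 85 bases. MDAR3 (AT3G09940), a cytosolic reductase, fell by 0.79 ± 0.19 (adjusted p = 0.00444), a call lost with DESeq2 (0.0581). The peroxisomal APX3 and MDAR4 and the organellar MDAR6 did not pass at any dose.

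Ascorbate synthesis and oxidation held 10 tested genes, of which 1 rose and 3 fell at 1000 µM and 0 passed at 100 µM. At 1000 µM these were 10% and 30%, against 15.2% and 14.5% of all tested genes, and at 100 µM 3.32% of all genes passed. VTC5 (AT5G55120), a GDP-galactose phosphorylase of ascorbate synthesis, fell from 39.4 and 36.2 CPM to 24.4 and 21.1 CPM at 1000 µM (log2 change -0.74 ± 0.13, adjusted p = 0.000272), and the ascorbate oxidase gene AO2 (AT5G21100) fell by 0.87 ± 0.11 on that scale. The rise was that of VTC2 (AT4G26850), also a GDP-galactose phosphorylase gene, by 0.31 ± 0.11 (adjusted p = 0.0427). Its mean in the controls was above that of VTC5 (92.8 against 19.3 CPM per kb). The VTC2 call was lost with DESeq2 (adjusted p = 0.0729), with only the 2 groups fitted (0.0892) and without any 1 library except 1000 µM replicate 2. The log2 change of VTC2 was 0.11 without 1000 µM replicate 1. Of 8 tested genes of glutathione synthesis, transport and turnover, 2 fell (25%) and 0 rose at 1000 µM. GGCT2;1 (AT5G26220), a cyclotransferase that degrades glutathione, went from 7.13 and 7.79 CPM in the controls over 3.88 and 3.57 CPM to 1.25 and 1.77 CPM at 1000 µM (log2 change -2.28 ± 0.32, adjusted p = 3.48e-05), while GSH2 (AT5G27380), which completes glutathione synthesis, did not pass at any dose.

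Sulfate reduction and cysteine synthesis, which supply the cysteine for glutathione, had 2 rises and 3 falls among 11 tested genes at 1000 µM. These were 18.2% and 27.3%, against 15.2% and 14.5% of all tested genes. The falls were APS1 (AT3G22890), an ATP sulfurylase, from a mean of 608.7 CPM to 453 CPM (log2 change -0.43 ± 0.11, adjusted p = 0.00795), APS3 (-0.68 ± 0.15, adjusted p = 0.00193) and OASB (-0.37 ± 0.09, adjusted p = 0.00427). The rises were SERAT2;1 (AT1G55920), a serine acetyltransferase, from 32.3 and 33.3 CPM to 95.3 and 90.0 CPM (log2 change 1.5 ± 0.12, adjusted p = 4.29e-08), and APR3 (AT4G21990), a plastid APS reductase, from 168 and 162 CPM to 339 and 311 CPM (0.98 ± 0.09, adjusted p = 3.05e-07). Among 7 tested peroxidases of the glutathione peroxidase-like family, 3 rose and 1 fell at 1000 µM (42.9% and 14.3%). The fall, of GPX3 (log2 change -0.52 ± 0.19, adjusted p = 0.0457), was lost with DESeq2 (0.229) and with only the 2 groups fitted. GPX7 rose by 1.33 ± 0.41 (adjusted p = 0.0196), from 13 and 10 counts to 34 and 28, a call lost with DESeq2 (0.118). It overlaps AT4G31875 on the other strand by 751 bases. GPX2 rose by 0.35 ± 0.09 (adjusted p = 0.00883). GPX6 (AT4G11600) rose from 66.4 and 73.5 CPM over 109.3 and 102.7 CPM to 164 and 135 CPM (log2 change at 1000 µM 1.09 ± 0.11, adjusted p = 7.07e-07). Its call at 100 µM (0.60 ± 0.11, adjusted p = 0.00565) was lost without control replicate 1 or either 100 µM library, at 0.0849 to 0.14.

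The enzymes that supply NADPH, outside photosynthesis, went both ways, with 3 rises and 2 falls among 7 at 1000 µM. These were 42.9% and 28.6%, against 15.2% and 14.5% of all tested genes. Of the 5 calls, those of PGD2 (log2 change 0.30 ± 0.10, adjusted p = 0.0394) and G6PD6 (-0.43 ± 0.15, adjusted p = 0.0322) were weak. Both were lost with DESeq2 (0.0845 and 0.217) and with only the 2 groups fitted. PGD1 passed narrowly (0.32 ± 0.12, adjusted p = 0.0479). NADP-ME2 (AT5G11670), the cytosolic malic enzyme, had 546 and 530 CPM in the controls, 717 and 760 CPM at 100 µM and 1476 and 1131 CPM at 1000 µM (log2 change at 1000 µM 1.28 ± 0.11, adjusted p = 1.86e-07). cICDH (AT1G65930), the cytosolic isocitrate dehydrogenase, had 684 and 710 CPM, 503 and 558 CPM, and 379 and 391 CPM (log2 change at 1000 µM -0.86 ± 0.09, adjusted p = 2.05e-06). Genes known to respond to peroxide and high light gave 3 rises (60%) and 1 fall (20%), that of HSFA2, among 5 tested. The zinc finger genes ZAT12 (AT5G59820) and ZAT10 (AT1G27730) had log2 changes of 2.48 ± 0.17 and 1.67 ± 0.14, and the kinase gene OXI1 (AT3G25250) went from 1.16 and 0.82 CPM to 13.2 and 11.1 CPM (3.59 ± 0.32, adjusted p = 1.83e-07).

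**Figure D4:**
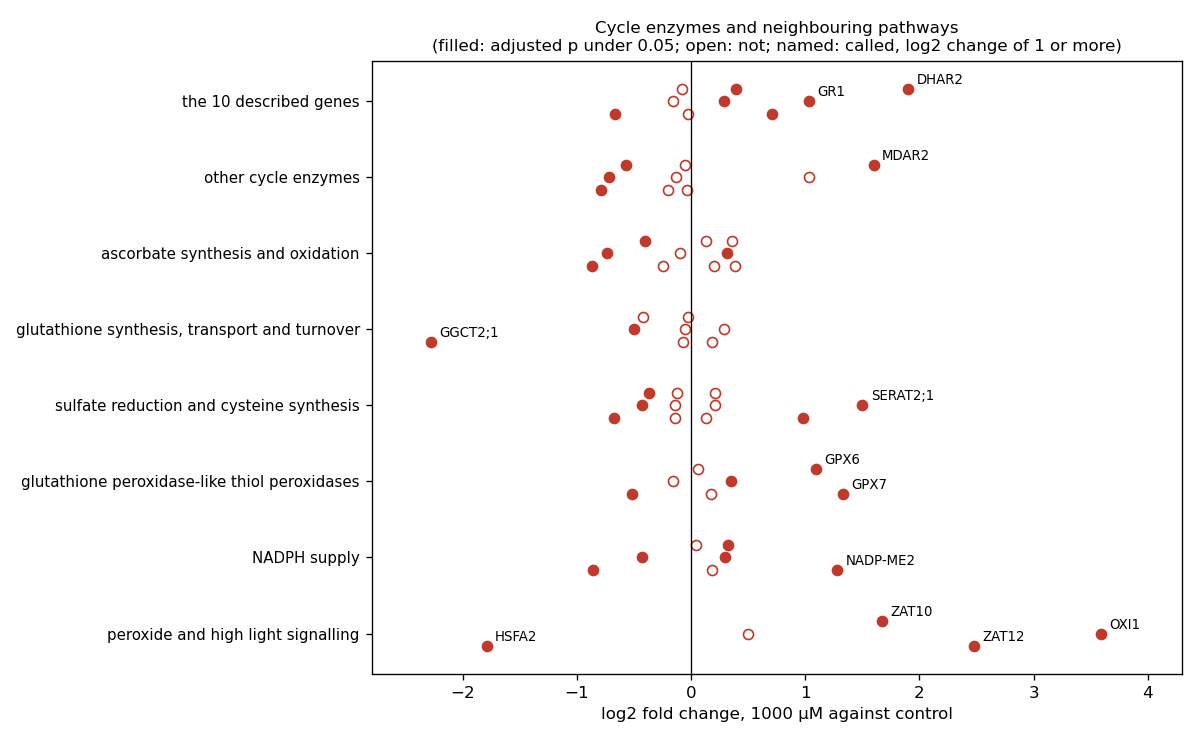
Log2 fold change at 1000 µM against the control (horizontal axis) for each tested gene of the 10 described enzymes and of 7 further lists (vertical axis), 1 point per gene, filled where adjusted p is under 0.05. Every list holds filled points on the falling side, and all lists but that of glutathione synthesis, transport and turnover hold some on the rising side. DHAR2 at 1.90 and MDAR2 at 1.60 are the highest among enzymes of the cycle.

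Over these 7 lists together, 13 of 57 tested genes rose and 15 fell at 1000 µM, 22.8% and 26.3% where all genes gave 15.2% and 14.5%, and the median log2 change was -0.03. Without control replicate 2 the counts were 8 and 9. At 100 µM 3 rose and 2 fell, 5.26% and 3.51% of the 57, and between 0 and 12 passed when 1 library was left out.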

How the data were processed

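Read counts per gene were deposited as whole numbers for 6 libraries in 3 groups of 2. Per the submitters' processing notes, the authors worked on the build TAIR10 with HTSeq 0.6.1, TopHat2 2.0.12, DESeq 1.18.0 and Bowtie2 2.2.3; what each did, with which options and strand setting, is not given in the sources used here. If strand was not used, reads from where genes on opposite strands overlap may be lost or shared.

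In edgeR 4.0.16 (R 4.3.3), filterByExpr kept 18380 of 32678 genes, TMM scaled the libraries, and a quasi-likelihood fit with group as the only term (3 residual and 14.1 prior degrees of freedom) gave the tests, which were tested on simulated data. Standard errors are the absolute log2 change over the square root of F. CPM uses the TMM-scaled library size. Exon lengths, overlaps and promoters came from RefSeq's TAIR10.1, in which 31912 identifiers were found. Precision is limited by 2 libraries per group and, for low counts, by depth (6410046 to 7723602 counts per library).

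All 10 members are named; from each further list, up to 4 genes with the smallest adjusted p past 0.05 in each comparison, or that with the smallest p, were listed, and the text gives mainly those with the smallest p at 1000 µM. Promoters were to be searched for members changed at 1000 µM; the search over all 10 and the showing of APX2 were chosen after values were seen. The members and lists were chosen with earlier results of these data known. Alternatives were RLE scaling, no filter, DESeq2 1.42.0, fits of 2 groups, a replicate block and leaving out each library.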

Additional observations from a re-analysis of the deposited data

How the results depend on the processing

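Of the alternatives, RLE scaling kept every count below within 1.5 times. For 100 µM against control, the counts of the 9 described transcripts, of the 57 further pathway genes and of all genes called were 1, 5 and 610. They were 3, 10 and 1091 without a filter on low counts and 3, 12 and 1697 with only the 2 groups fitted. DESeq2 called 0 of the 9 transcripts and 334 of all genes there, and with the replicate block 0 of the 9 were called. At an unadjusted p under 0.05, edgeR's main test counted 4 of the 9, DESeq2 3 and the replicate block 4. At 1000 µM DESeq2 called 3188 of all genes, where edgeR called 5442, and between the doses 1567 against 2932. Of the further pathway genes it called 20 at 1000 µM (9 rising and 11 falling), where edgeR called 28. The cause of these shifts was not tested.

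When 1 library was left out, the described transcripts called ranged from 0 to 3 at 100 µM, from 4 to 6 at 1000 µM and from 3 to 4 between the doses. The further pathway genes ranged from 0 to 12, from 17 to 34 and from 10 to 24, and all genes from 101 to 1757, from 3318 to 6684 and from 1158 to 4442. Where an arm kept 1 library, that library was assumed to vary like the other groups. Reversals concerned uncalled values near 0: with 1 library left out, GR2 at 100 µM ranged from -0.05 to 0.03 (positive without control replicate 2), GSH1 at 1000 µM from -0.06 to 0.01 (positive without 1000 µM replicate 2) and GSH1 between the doses from -0.04 to 0.04 (positive without 1000 µM replicate 2, and 0.01 without 100 µM replicate 2).

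Replicate numbers did not pair the libraries: the differences between replicates 1 and 2 correlated across genes at 0.03, -0.03 and -0.07 between groups. With the number as a replicate block, 0, 6 and 3 of the 9 transcripts were called at 100 µM, at 1000 µM and between the doses, and GR1 at 100 µM had an adjusted p of 0.0827.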
